A study of Mus musculus with 6 samples.

Results

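A set of 8 regulators that drive growth and immaturity in fetal tissue were compared between young and aged mouse RPE/choroid. None of them is an imprinted gene. They are Igf2bp1, Igf2bp2, Igf2bp3, Lin28b, Hmga1, Hmga2, Sox4 and Sox11, and all 8 were found by symbol among the 33924 genes of the deposited comparison. RPE/choroid is the retinal pigment epithelium, the pigmented layer behind the photoreceptors, together with the vascular layer under it. The young group held 3 samples from C57BL/6J mice of 1 to 2 months. The aged group held 3 samples from C57BL/6J mice of 20 to 24 months by the sample titles and 22 to 24 months by the time label. No mutation, transgene or treatment was named for either group. The labels call every mouse male, but males and females, and a somewhat higher age of the young mice, stand in the study's methods. By the methods each sample took in 2 eyes, and the tissue was scraped from the eyecup once the neural retina had been lifted off. Total RNA was sequenced after removal of ribosomal RNA, from stranded libraries made without selection for poly(A) tails.

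Many of these genes belong to a program that is active in the embryo and is shut down as tissues mature. Lin28 proteins are RNA-binding proteins that block the maturation of let-7 microRNAs. Let-7 microRNAs accumulate as cells differentiate, and they repress the messages of Hmga2, the Igf2bp genes and Lin28b itself. The Igf2bp proteins bind growth-promoting messages such as Igf2 and keep them stable or carry them to their place of translation. Hmga proteins bend AT-rich DNA and loosen chromatin, and Sox4 and Sox11 are SoxC transcription factors of committed precursors and young neurons.

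The seed of let-7, which is the stretch that pairs with a target, is shown first because it joins 6 of the 8 genes by sequence. Every let-7 and miR-98 mature sequence found in the RefSeq table (GRCm38.p6) carried the same seed, at bases 2 to 8, which is printed in capitals below. Let-7c and let-7d are shown because Mirlet7c-1 and Mirlet7d were the let-7 genes that passed the test. Let-7c is also made from Mirlet7c-2, which did not pass (log2 fold change -0.22, adjusted p = 0.790, DESeq2).
mmu-let-7c-5p: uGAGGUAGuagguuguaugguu
mmu-let-7d-5p: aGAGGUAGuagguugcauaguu

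The complement of that seed, CTACCTC, was looked for on the coding strand of each annotated 3′ UTR (GENCODE vM21, GRCm38, the transcript with the longest 3′ UTR). Each window below is 25 bases long and reads 5′ to 3′, with the match in capitals.
Igf2bp1 site 1, chr11:95961776-95961800, minus strand: gctgtgcgaagtaaaCTACCTCaag
Igf2bp1 site 2, chr11:95959355-95959379, minus strand: cagcagtgctattaaCTACCTCagc
Igf2bp1 site 3, chr11:95958761-95958785, minus strand: gtataaatggatgaaCTACCTCagt
Igf2bp2, chr16:22059471-22059495, minus strand: acacacaaataaaagCTACCTCagg
Igf2bp3, chr6:49086785-49086809, minus strand: tgcatttttactcaaCTACCTCagg
Lin28b site 1, chr10:45381020-45381044, minus strand: acccgggcgggaagtCTACCTCatg
Hmga1, chr17:27563277-27563301, plus strand: tcctctgttcacaaaCTACCTCtgg
Hmga2 site 1, chr10:120364222-120364246, minus strand: gccgacattcaatttCTACCTCagc
Of 15 matches in all, 7 are followed by A, the base that makes a match of full length, and 8 are not. The windows shown are those 7 and the single match of Hmga1, which is not followed by A.

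The values analysed were those of the authors' deposited table, with 1 line per gene. It gives a mean over the 6 libraries in normalized counts (baseMean), a fold change on the log2 scale with a standard error (SE), and the p and adjusted p of DESeq2. No column held the value of a single mouse, so the levels per mouse, their overlap between groups and the depth of each library are not given here, and the error between mice enters only through the SE. The mean of each group was derived from baseMean and the fold change and carries no error of their own. A gene is said to have risen or fallen in aged mice where its adjusted p was under 0.05.

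Among the 8 regulators, 5 fell in aged RPE/choroid and 0 rose. Those that fell were Igf2bp1, Igf2bp2, Igf2bp3, Sox4 and Sox11. Lin28b and Hmga1 did not pass the test, and Hmga2 was too scarce to be given an adjusted p. Of all 18636 genes tested, 21.2% passed the test, with 9.92% lower and 11.3% higher in aged mice. The median log2 fold change, aged over young, was -0.78 over the 7 members tested and -0.01 over all genes tested. Within the set the log2 fold changes ran from -2.18 in Sox11 to 0.44 in Hmga1. Because bulk tissue was read, fewer cells of a type and less RNA per cell cannot be told apart. No group of an age in between was sampled, so maturation after the young age and later ageing cannot be told apart either.

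**Figure D1:**
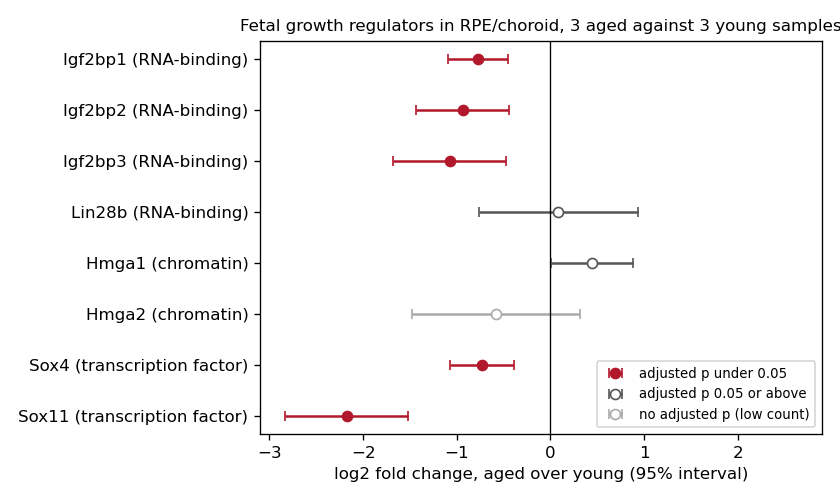
Log2 fold change, aged over young, of each regulator (x axis), with its 95% interval as a bar and its role in brackets (y axis). Filled red points passed an adjusted p of 0.05, and the intervals of these 5 lie wholly below 0.

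All 3 Igf2bp genes fell, by 41.6% to 52.6%. Igf2bp1 (ENSMUSG00000013415, chr11:95957163-96005940, minus strand, 15 exons) had a baseMean of 285 normalized counts. Its group means worked out at 359 normalized counts in young and 210 in aged mice. The log2 fold change was -0.78 ± 0.16 (SE), with a 95% interval from -1.09 to -0.46 and an adjusted p of 3.77e-05 from DESeq2. Igf2bp1 is known as a fetal protein that returns in tumours.

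Igf2bp2 (ENSMUSG00000033581, chr16:22059009-22163299, minus strand) is the paralogue that adult tissues retain and that is tied to metabolism and muscle growth. It went from 104 to 54.6 normalized counts, a log2 fold change of -0.94 ± 0.25 (adjusted p = 0.00213, DESeq2). Igf2bp3 (ENSMUSG00000029814, chr6:49085223-49214957, minus strand) is largely restricted to embryonic tissue. It went from 89.1 to 42.2 normalized counts, a log2 fold change of -1.08 ± 0.31 (adjusted p = 0.00430, DESeq2). The interval of Igf2bp2 ran from -1.43 to -0.44 and that of Igf2bp3 from -1.68 to -0.47, so the 3 paralogues lay within each other's intervals. Their differences from each other were not tested, because the members were read in the same libraries and their covariance is not given.

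Lin28b (ENSMUSG00000063804, chr10:45376620-45486395, minus strand), the let-7 blocker, was scarce. Its baseMean was 12.1 normalized counts, with 11.8 in young and 12.5 in aged mice. The log2 fold change was 0.08 ± 0.43, and the adjusted p of DESeq2 was 0.924. The interval of the log2 fold change ran from -0.77 to 0.93, wide enough to reach almost to the value of Igf2bp1. Among genes within a factor of 2 of its abundance, the smallest change to pass was 1.00 on the log2 scale, in either direction, so a change of the size seen in Igf2bp1 was not detectable at this level. Its paralogue Lin28a was scarce too (baseMean 13.4 normalized counts) and had a log2 fold change of 0.17 (adjusted p = 0.836, DESeq2).

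Hmga1 (ENSMUSG00000046711, chr17:27556497-27563674, plus strand) was the member whose value lay furthest above 0. Its group means worked out at 105 normalized counts in young and 143 in aged mice, with a log2 fold change of 0.44 ± 0.22 and a 95% interval from 0.01 to 0.88. The unadjusted p of DESeq2 was 0.0458 and the adjusted p was 0.145, so the change did not pass. Only 37.9% of the 31-base words of its annotated transcripts occur in no other gene. Over the other 7 regulators the unique share ran from 97.7% to 99.8%. The count of Hmga1 is therefore uncertain, because it depends on how shared reads were divided. AI413582, a gene that overlaps Hmga1 on the opposite strand, rose by 0.63 ± 0.16 on the log2 scale (adjusted p = 0.00105, DESeq2). The libraries were stranded, but whether the strand was used in quantification is not given in the sources used here, and the part of AI413582 in the value of Hmga1 was not tested.

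Hmga2 (ENSMUSG00000056758, chr10:120361275-120476469, minus strand), the Hmga protein of stem and mesenchymal cells of the embryo, was close to the limit of detection. Its baseMean was 4.36 normalized counts, under the largest baseMean without an adjusted p, which was 7.07. The log2 fold change was -0.58 ± 0.46 with an interval from -1.48 to 0.31 and an unadjusted p of 0.203 (DESeq2). No tested gene was less abundant, so at this baseMean no change of any size could pass. Even among the more abundant tested genes within a factor of 2 of it, no change under 1.18 on the log2 scale passed.

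Sox11 (ENSMUSG00000063632, chr12:27334264-27342574, minus strand, 1 exon) had the strongest fall of the 8. Its group means worked out at 80.8 normalized counts in young and 17.9 in aged mice, 4.52 times higher in the young. The log2 fold change was -2.18 ± 0.34, the interval ran from -2.84 to -1.52, and the adjusted p was 3.97e-09 (DESeq2). Ordered from the strongest fall, Sox11 stood at position 27 of the 18636 genes tested. Sox11 acts in progenitors and in differentiating neurons and is little expressed in most adult tissue.

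Sox4 (ENSMUSG00000076431, chr13:28948919-28953713, minus strand, 1 exon) is the SoxC factor with the broader expression. Its baseMean was 284 normalized counts and that of Sox11 was 49.4. Sox4 went from 354 in young to 214 normalized counts in aged mice, a log2 fold change of -0.73 ± 0.17 (adjusted p = 0.000417, DESeq2). Its interval, -1.07 to -0.38, did not meet that of Sox11, a comparison made by eye on the intervals and not a test. Sox12, the remaining SoxC gene, had a log2 fold change of -0.46 with an adjusted p of 0.152 (DESeq2).

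**Figure D2:**
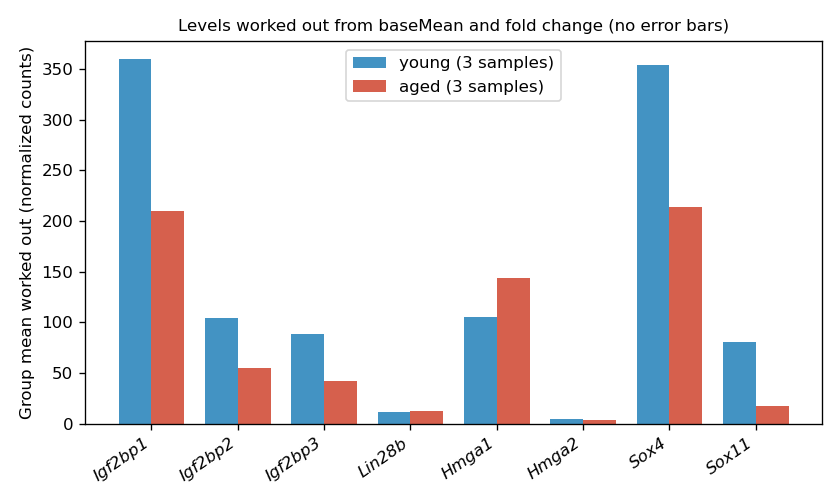
Group means derived from baseMean and the fold change, in normalized counts (y axis), for each regulator in young (blue) and aged (red) mice; no error bars, as single mice have no values. The blue bars stand above the red in Igf2bp1 (359 against 210), Sox4 (354 against 214) and Sox11 (80.8 against 17.9), and the order is the opposite in Hmga1 (105 against 143), which did not pass the test.

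Levels were compared between genes per kilobase of the transcript with the longest 3′ UTR. On that scale Hmga1 stood highest with a baseMean of 74.0 normalized counts per kilobase, followed by Sox4 with 59.1 and Igf2bp1 with 34.0. Igf2bp2 had 20.4 and Igf2bp3 had 15.1 normalized counts per kilobase. Sox11, with a transcript of 8311 bases, had 5.94, Lin28b had 2.25 and Hmga2 had 1.14 normalized counts per kilobase. No SE is given for a level, so neighbours in this order were not told apart by a test, and the place of Hmga1 depends on how shared reads were divided.

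**Figure D3:**
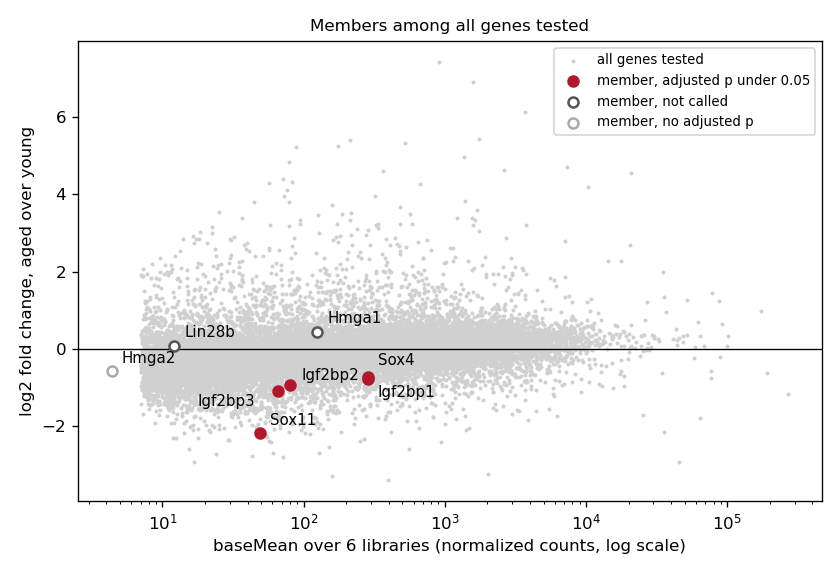
Each grey point is 1 of 18636 genes tested, by baseMean (x axis, normalized counts, log scale) and log2 fold change, aged over young (y axis). The 5 filled red members lie below 0, with Sox11 at -2.18 near the lower edge of the cloud, whereas Lin28b (12.1) and Hmga2 (4.36) lie at the far left.

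Matches to the let-7 seed were found in the 3′ UTRs of 6 of the 8 genes. Igf2bp1, Lin28b and Hmga2 held 4 matches each, and Igf2bp2, Igf2bp3 and Hmga1 held 1 each. Sox4 and Sox11 held 0 in 3′ UTRs of 2780 and 6957 bases, which says only that these letters are not there. Of the 13889 genes tested with an annotated 3′ UTR, 10.4% held at least 1 match. Length differs as well: the median 3′ UTR was 2364 bases in genes with a match and 1055 in genes without, and those of the 8 regulators ran from 1183 to 6957 bases. Several of the 8 genes are known for their let-7 sites, so the share among them follows in part from their choice. The median log2 fold change was 0.03 among the genes that hold a match and 0.03 among those without one.

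**Figure D4:**
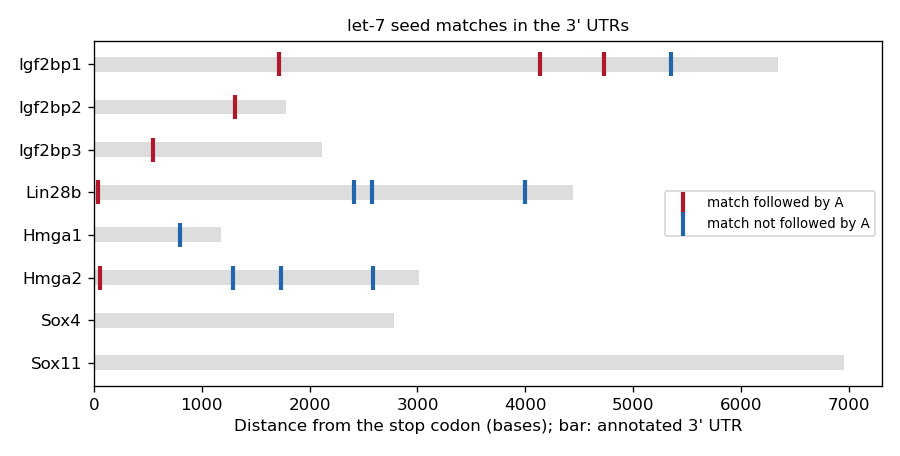
Matches to the let-7 seed (ticks, red where followed by A, blue where not) along the annotated 3′ UTR of each regulator (grey bar), by distance from the stop codon in bases (x axis). Igf2bp1 has 4 ticks, 3 of them red, and the bars of Sox4 and Sox11 are without ticks.

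Of the let-7 genes themselves, 2 fell in aged mice. Mirlet7c-1 fell by 1.47 ± 0.39 on the log2 scale (adjusted p = 0.00188, DESeq2). Mirlet7d fell by 1.15 ± 0.34 on that scale (adjusted p = 0.00648, DESeq2). All 5 let-7 genes tested had log2 fold changes under 0, with a median of -0.92, and 2 of them passed. Among the other microRNA genes the counts were alike in direction: of 38 tested, 38 had log2 fold changes under 0, 17 fell and 0 rose, and their median was -1.05. A total RNA library reads fragments of the precursor or the host transcript in place of the mature microRNA, so these values are not levels of mature let-7. In the wider list of Lin28 and let-7 processing genes, 4 of 18 tested fell and 0 rose, and Mirlet7c-1 and Mirlet7d are among the 4. Without the let-7 genes, 2 of 13 fell, beside 9.92% lower over all genes tested. Those 2 were the RNA helicases Ddx17 (log2 fold change -0.44, adjusted p = 0.00171) and Ddx5 (-0.29), which passed only just, both partners of Drosha. The processing enzymes Dicer1 (-0.15) and Drosha (0.05) did not pass.

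Other messages are often described as let-7 targets too. Of 21 such genes tested, with the 8 regulators left out, 0 fell and 3 rose, beside 9.92% lower and 11.3% higher over all genes tested. The genes that rose were Tgfbr1, a TGF-beta receptor (log2 fold change 0.91, adjusted p = 4.55e-08, DESeq2), Arid3a, a chromatin-binding factor (0.57, adjusted p = 0.00118), and Irs2, an adaptor of the insulin receptor (0.57, adjusted p = 0.00686). The median log2 fold change of the 21 was -0.02, against -0.01 over all genes tested.

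Among messages and partners of the Igf2bp proteins, 2 of 15 fell and 3 rose, again beside 9.92% and 11.3% over all genes. The 2 that fell were the classic client Igf2, a fetal growth factor (log2 fold change -1.95, adjusted p = 2.73e-28), and H19, a fetal non-coding RNA (-3.23, adjusted p = 2.29e-75). Those that rose were the poly(A)-binding protein gene Pabpc1 (0.60, adjusted p = 0.00114), the adhesion receptor gene Cd44 (0.52, adjusted p = 0.00952) and Actb, whose message is the client that gave Igf2bp1 its name of zipcode-binding protein (0.29, adjusted p = 0.0471). The median of the 15 was 0.05 on the log2 scale.

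The HMG chromatin proteins other than Hmga were measured in 7 genes, of which 3 fell and 0 rose, where 9.92% of all genes fell and 11.3% rose. Hmgn2 had a log2 fold change of -0.47 (adjusted p = 0.00410, DESeq2) and Hmgn3 one of -0.43 (adjusted p = 0.0496), both nucleosome-binding proteins. Hmgb3, a DNA-bending protein of progenitor cells, had a log2 fold change of -0.68 (adjusted p = 0.0153). Its paralogues Hmgb1 (0.07, adjusted p = 0.776) and Hmgb2 (-0.21, adjusted p = 0.567) did not pass. Several of these genes have many processed copies in the mouse genome, so their counts may share reads.

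In the Sox family, 4 of 15 genes tested fell and 1 rose, and the median log2 fold change was -0.46. With Sox4 and Sox11 left out, 2 of 13 fell and 1 rose, with a median of -0.32, beside 9.92% lower and 11.3% higher over all genes tested. Apart from Sox4 and Sox11, the genes that fell were Sox17 (-0.65, adjusted p = 0.0115, DESeq2) and Sox7 (-0.71, adjusted p = 0.0477), factors of the vascular endothelium. Sox9, a factor of cartilage, glia and pigment epithelium, rose by 0.73 on the log2 scale (adjusted p = 0.000307, DESeq2).

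**Figure D5:**
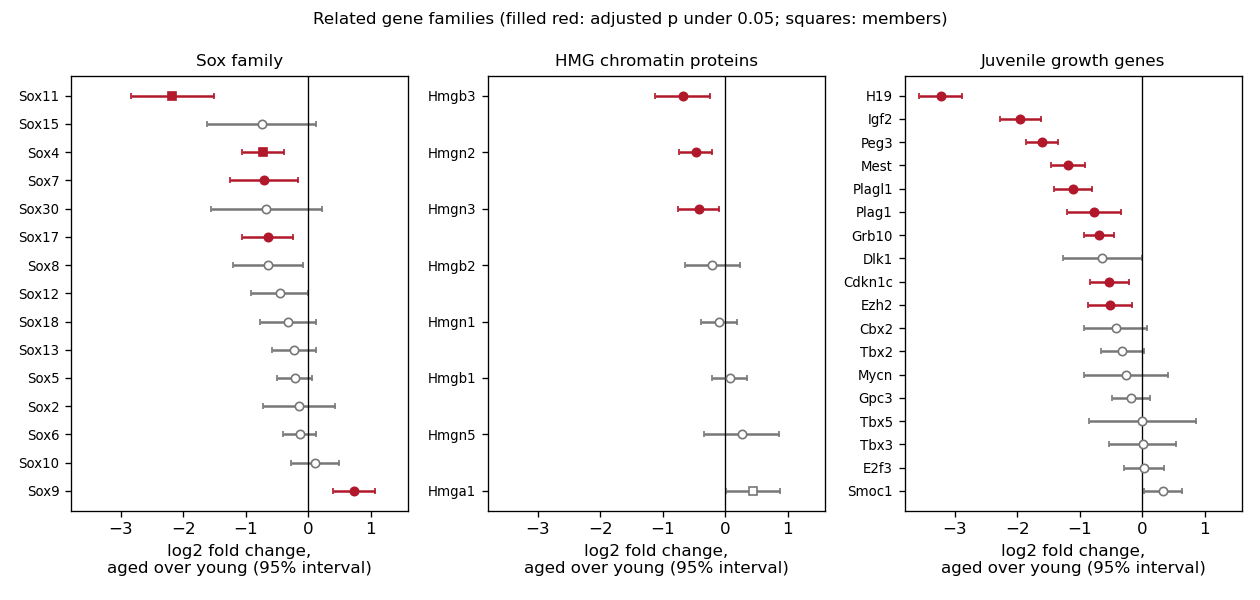
Log2 fold change, aged over young, with 95% intervals (x axes) for the genes tested in the Sox family, the HMG chromatin proteins and a list of juvenile growth genes (y axes); filled red points passed an adjusted p of 0.05 and squares are members. Sox11 (-2.18) stands at the left of its family and Sox9 (0.73) at the right, while none of the HMG or juvenile growth genes that passed lies above 0.

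Of 13 genes often named as targets of Sox4 and Sox11, 9 did not pass, 3 fell and 1 rose, beside 9.92% lower and 11.3% higher over all genes tested. The median log2 fold change of the 13 was 0.03. Dcx, the microtubule protein of migrating young neurons, had a log2 fold change of -1.07 (adjusted p = 0.0229, DESeq2). Epha4, an axon guidance receptor, had -0.94 (adjusted p = 1.16e-07) and Marcksl1, an actin-binding protein, had -0.75 (adjusted p = 0.00196). Plxna1, a semaphorin receptor, rose by 0.75 on the log2 scale (adjusted p = 0.000272, DESeq2).

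A list of 18 genes known to fall with the slowing of juvenile growth held 9 that fell and 0 that rose (9.92% and 11.3% over all genes), with a median log2 fold change of -0.52. Most of those are imprinted. The 2 that are not were Plag1, a growth-promoting zinc finger factor (-0.77, adjusted p = 0.00418, DESeq2), and Ezh2, the Polycomb methyltransferase of dividing cells (-0.51, adjusted p = 0.0256).

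The promoters of Sox4 and Sox11 are shown because both genes fell, and that of Igf2bp3 because it is the Igf2bp promoter with the most named motifs. Each runs from 250 bases before to 50 after the RefSeq start (GRCm38.p6). RefSeq promoters were matched for 7 of the 8 regulators, with none for Igf2bp1. Capitals mark CCAAT, read as ATTGG on the opposite strand, and CACGTG, which reads the same on both strands.
Sox4, chr13:28953650-28953949, minus strand: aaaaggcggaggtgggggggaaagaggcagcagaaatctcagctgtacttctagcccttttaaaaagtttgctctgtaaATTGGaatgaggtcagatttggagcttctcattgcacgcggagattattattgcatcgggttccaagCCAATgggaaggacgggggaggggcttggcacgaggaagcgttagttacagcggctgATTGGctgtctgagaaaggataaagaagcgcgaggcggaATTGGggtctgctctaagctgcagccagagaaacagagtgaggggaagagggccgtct
Sox11, chr12:27342669-27342968, minus strand: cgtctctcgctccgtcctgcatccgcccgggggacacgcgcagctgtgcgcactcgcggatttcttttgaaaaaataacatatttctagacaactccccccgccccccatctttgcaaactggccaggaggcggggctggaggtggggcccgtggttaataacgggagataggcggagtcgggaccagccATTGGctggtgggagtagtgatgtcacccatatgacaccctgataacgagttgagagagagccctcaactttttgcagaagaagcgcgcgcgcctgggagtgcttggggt
Igf2bp3, chr6:49214905-49215204, minus strand: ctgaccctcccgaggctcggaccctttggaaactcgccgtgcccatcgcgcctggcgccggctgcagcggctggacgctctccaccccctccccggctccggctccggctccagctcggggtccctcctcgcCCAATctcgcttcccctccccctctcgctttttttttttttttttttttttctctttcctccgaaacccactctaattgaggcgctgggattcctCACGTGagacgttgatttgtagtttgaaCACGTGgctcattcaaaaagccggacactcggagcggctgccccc

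The Sox4 window held 4 CCAAT motifs and the Sox11 window 1, and 37.4% of 32851 promoter windows of the same length held at least 1. Igf2bp3 held 1 CCAAT and 2 CACGTG, a motif present in 7.15% of windows. Igf2bp2, which also fell, held neither motif, and Lin28b, which did not pass the test, held 1 of each. The matches describe these windows and say nothing of which factor binds.

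Markers of the cells that RPE/choroid can hold were read beside these results, and their counts stand against 9.92% lower and 11.3% higher over all genes tested. The RPE markers were abundant, with Rpe65 at a baseMean of 43745 normalized counts. Of 6 RPE markers, 0 fell and 2 rose, with a median log2 fold change of 0.34, and 1 of 6 melanocyte markers fell. Of 6 fibroblast markers, 3 fell and 1 rose. Those that fell were the collagen genes Col1a1 (-2.91), Col3a1 (-2.14) and Col1a2 (-1.80), whereas Dcn rose by 0.51 and Lum (0.26) and Pdgfra (0.21) did not pass. Of 6 proliferation markers, Top2a fell (-0.56, adjusted p = 0.0187, DESeq2), all 6 values were under 0, and the median was -0.39. Among macrophage markers 3 of 5 found by symbol rose and 1 fell, and among endothelial markers 1 of 5 fell. A further planned macrophage marker, Adgre1, stood under its older symbol Emr1 (log2 fold change 2.12) and is not in these counts. Of the muscle markers 2 of 5 fell, while rod markers were present (summed baseMean 93285 normalized counts) with 0 of 6 passing. Of the Schwann cell markers 1 of 4 rose, and 0 of 3 lens markers tested passed. The part of the collagen, proliferation and muscle markers in the fall of the Igf2bp and SoxC genes was not tested.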

How the data were processed

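Total RNA of RPE/choroid from 3 young and 3 aged mice was analysed from 1 deposited table. Upstream, the authors used BBDuk for trimming, STAR for alignment to the Ensembl transcripts of GRCm38, Sailfish for abundances, total count scaling, and DESeq2 for the comparison. Sailfish ran with its default settings on read pairs, which share a read that fits several transcripts in proportion to their estimated abundance. The library kit was stranded, and the strand setting in quantification is not given in the sources used here. The deposited baseMean is a normalized signal, the mean over 6 libraries. The other columns are the authors' own comparison: a deposited log2 fold change with its SE, the deposited Wald score, and the p-value and adjusted p-value deposited from DESeq2. Values of single samples fill 0 columns, so these deposited values are described and no test per gene was rerun. The study calls its 3 replicates per group biologically independent. The planned fits per library were replaced by this description.

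The table does not state its sign. Of the genes passing the threshold, 1849 were positive and 2100 negative as deposited, and the study's split of higher and lower genes gave young over aged. The sign was reversed, and every direction printed here rests on that reading. SEs were at most 0.46, with a median of 0.24 under a baseMean of 2, a pattern that shrunken fold changes would give, though no source states shrinkage. If it holds, changes of scarce genes are understated.

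Intervals are the fold change ± the normal quantile at 95% times the SE. Group means assume that baseMean averages both groups equally and that the fold change is not shrunken. If it is, the derived young and aged means of a gene lie too close together. Of 33924 genes, 18636 had an adjusted p, 7885 had a p only, 160 had a fold change without p, and 7243 were at 0. Recomputed Wald p and Benjamini-Hochberg values (Python 3.11.15, pandas 2.3.3, scipy 1.17.1) lay within 0.449% and 0.572% of the deposited ones, and the computation was tested on simulated data. Let-7 matches used GENCODE vM21, and 31-base words were compared over its transcripts. The regulators, related lists and marker lists were chosen with earlier results of these data known. Named list genes are those with an adjusted p under 0.05, at most 5 per direction, and direct paralogues. From the juvenile growth list, Plag1 and Ezh2 were named because they are not imprinted, though other genes there had lower adjusted p. Mirlet7c-2 was named because it gives the same mature sequence as Mirlet7c-1. AI413582, Dicer1, Drosha and single markers were named after their values were seen.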

Additional observations from a re-analysis of the deposited data

How the results depend on the processing

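A set of 5 settings were tried on the table. The count of 5 regulators that fell was 5 at an adjusted p of 0.01, without the filter on scarce genes, and after centring on the median of abundant genes. It was 2 where the log2 fold change also had to reach 1 in size, which left Igf2bp3 and Sox11. It was also 2 with a baseMean of at least 100, which left 3 regulators tested and Igf2bp1 and Sox4 called, so that setting gives no value for Igf2bp2, Igf2bp3, Lin28b, Hmga2 and Sox11. Of 31 values under these settings for the regulators with an adjusted p in the deposited table, 28 kept their side of the threshold and 3 no longer passed. Hmga2 has none there, and without the filter on scarce genes its adjusted p was 0.508 (Benjamini-Hochberg over the deposited DESeq2 p-values). Only centring alters a fold change, so the other settings could not turn a direction. Centring lowered every log2 fold change by 0.06, and over all genes it turned the split from 1849 lower and 2100 higher to 2289 lower and 1650 higher. A log2 fold change of at least 1 left 1542 of 3949 genes, and an adjusted p of 0.01 left 2520.

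No paired analysis was possible because single libraries have no columns in the deposited table. For the same reason leaving out each replicate, edgeR against DESeq2, and another normalization were not run. Depth per library is unknown here. Precision was lowest for Lin28b (SE 0.43) and Hmga2 (SE 0.46).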
